A study of Mus musculus with 14 samples.

Results

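Ms4a4c, Ms4a6b, Ms4a6c, Ms4a6d, Ms4a7, Tmem176a and Tmem176b are 7 genes for related membrane proteins, taken by name from the 24556 genes of a mouse macrophage expression table. The list was drawn up with earlier results of the same libraries known and its rule does not say which values chose the genes, so their values and calls below are a description and no independent support. All 7 genes were among the 11886 genes kept for testing, those with an unlogged value of at least 10 in at least 3 of the 14 libraries.

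The study asked how macrophages differ in tumours grown from mouse mammary carcinoma cells of the 4T1 line that had been exposed to a drug beforehand. The drug was GSK269962A at 5 µM for 5 days, and the vehicle was DMSO. Treated cells were placed in the fat pad of Balb/c mice. Cells were recovered from the tumours with magnetic beads against F4/80, the surface protein encoded by Adgre1, in a pair of column passes, and total RNA was sequenced. The DMSO day 8 and GSK day 8 groups held 3 libraries each, and the DMSO day 14 and GSK day 14 groups held 4 each. The labels do not say whether libraries of a group came from separate mice, so p-values measure the spread between these libraries only. Reads came from bulk fractions, in which fewer cells of a type and less RNA per cell cannot be told apart.

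MS4A proteins cross the membrane several times and sit beside immune receptors. The family includes MS4A1 (CD20, the B cell antigen) and MS4A2 (the beta chain of the high-affinity IgE receptor of mast cells), whereas other members are found on monocytes and macrophages. TMEM176A and TMEM176B share the MS4A fold, lie mainly in intracellular membranes, act as cation channels, and are known from dendritic cells and macrophages. In mice, Ms4a6d acts with the receptor VSIG4 to restrain the NLRP3 inflammasome, the complex that activates caspase-1 and interleukin-1 beta, and Tmem176b also restrains that complex.

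The 5 Ms4a members lie within chromosome 19 bases 11321039 to 11604849 of GRCm38 (mm10), inside a run of 19 annotated Ms4a genes from 10962293 to 11640851. In order along the chromosome they are Ms4a7 (11321039 to 11336146, minus strand), Ms4a4c (11404770 to 11427246, plus), Ms4a6c (11469366 to 11482192, plus), Ms4a6b (11516512 to 11531256, plus) and Ms4a6d (11586604 to 11604849, minus). The other pair lies head to head on chromosome 6, with Tmem176b at 48833818 to 48841496 on the minus strand and Tmem176a at 48840919 to 48847071 on the plus strand. Their gene bodies overlap by 578 bases, and the exons of their coding transcripts by 81 bases. That is 3.94% of the Tmem176a exon bases and 3.58% of those of Tmem176b, and the labels do not say whether reads were counted by strand.

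RefSeq start sites (GRCm38.p6) were available for 6 of the 7 genes. Ms4a6b and Ms4a6c resembled each other just upstream of their starts, with 148 of 172 aligned bases identical (86.0%), the highest local alignment score among 36 pairs of 9 windows. The 9 windows included those of Ms4a14, Ms4a4a and Ms4a8a. The Ms4a6b window lies inside the annotated Ms4a6b gene body, and the alignment runs into an annotated exon of that gene. The exon-free stretches of Ms4a6c and Ms4a6b are shown because these neighbouring paralogs differed in their values across groups. Capitals mark runs of at least 12 bases that both printed stretches hold.
Ms4a6c, chr19:11469118-11469365 (+): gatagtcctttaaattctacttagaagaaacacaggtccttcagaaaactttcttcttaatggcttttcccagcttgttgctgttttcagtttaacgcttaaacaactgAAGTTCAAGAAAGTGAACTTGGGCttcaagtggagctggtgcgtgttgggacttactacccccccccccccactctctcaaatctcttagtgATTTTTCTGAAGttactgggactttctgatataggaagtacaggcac
Ms4a6b, chr19:11518309-11518452 (+): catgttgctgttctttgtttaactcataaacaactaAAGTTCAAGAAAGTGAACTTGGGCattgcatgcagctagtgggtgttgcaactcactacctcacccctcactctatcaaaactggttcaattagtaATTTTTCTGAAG
The marked runs add up to 36 bases in each printed stretch. The last of them is cut where an annotated exon of Ms4a6b begins, and the matching tail of the Ms4a6c stretch beyond it is left in lower case.

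The 250 bases upstream of each start were searched on both strands for 5 short motifs. GAGGAA, the core bound by the myeloid factor PU.1, was held by 3 of the 10 windows of these 6 genes, beside 23.3% of 32851 RefSeq promoters. Ms4a4c held it 61 bases before its start, and the other windows, 1 each of Tmem176a and Tmem176b, overlap and hold the same pair of matches. None of the 6 genes held TTGCGNAA (C/EBP, 0.67% of promoters), the interferon-stimulated element (2.98%), TGACTCA (AP-1, 4.46%) or CACGTG (E-box, 6.02%). That pair is shown with the motif in capitals, written on the plus strand. Both matches lie inside the annotated Tmem176a gene body. The one shown first runs across the Tmem176b end at which that minus-strand gene starts.
Tmem176 match across the Tmem176b end, chr6:48841480-48841509 (+): ccacccaggttcTTCCTCctgccagggctg
Tmem176 match within Tmem176a, chr6:48841568-48841597 (+): tccccggtcccaGAGGAAtcaggtaagaca
A match of these letters is not a binding site, and a missing match says only that the letters are not in that window.

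All values are the deposited log2-scale normalised values, with no library depth given. Per kilobase of the longest coding transcript, the mean over 14 libraries was highest for Ms4a6c at 11.05. Ms4a7, a macrophage member of the family, followed at 10.50 and Ms4a6d at 10.47, a gap smaller than the SD of either over libraries. Ms4a6b was next at 9.47, then Tmem176a at 8.47 and Tmem176b at 8.16, which again differed by less than their SDs, and Ms4a4c was lowest of the 7 at 7.20. Without length scaling, Ms4a6c had a higher mean value than 97.8% of kept genes and Ms4a4c than 68.7%.

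Of the other Ms4a genes, 9 were in the table and 3 were kept. Ms4a8a, reported in mouse tumour macrophages, had values from 6.62 to 7.90, Ms4a14 from 4.65 to 5.67, and Ms4a4a, a partner of the fungal receptor Dectin-1, from 3.04 to 3.50. Ms4a8a had a per-kilobase mean of 7.11, within its SD of Ms4a4c. Ms4a1 (2.17 to 2.84) and Ms4a4b (2.69 to 3.11) were under the minimum, as were Ms4a2, Ms4a3, Ms4a15 and Ms4a4d. The map of the cluster shows the 5 members among genes at lower levels, a pattern given as a description with no test.

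**Figure D1:**
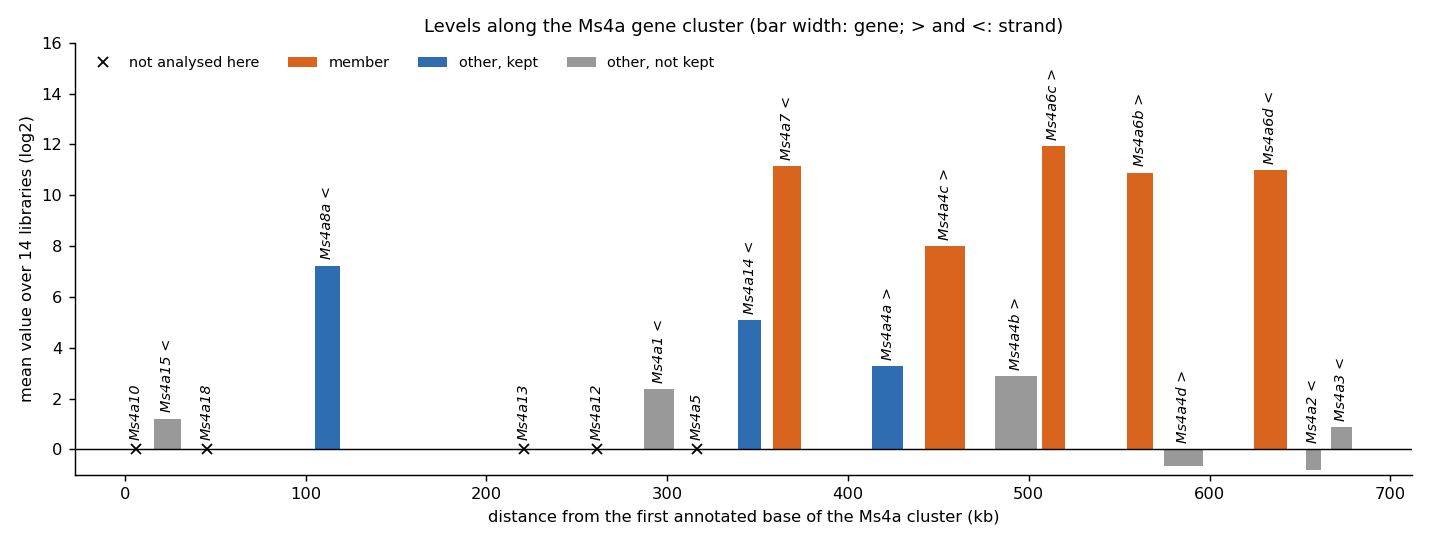
Mean log2 value over 14 libraries (y axis) for each Ms4a gene at its distance in kb from the first base of the cluster (x axis). Orange bars are the 5 Ms4a members, blue bars 3 other kept genes, grey bars genes under the minimum, and crosses genes not analysed here. Ms4a6c, Ms4a7, Ms4a6d and Ms4a6b stand near 11 to 12 on this unscaled axis, and Ms4a14, Ms4a4a and Ms4a1 near 2 to 5.

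Adgre1, which encodes the protein used for the isolation, ranged from 8.93 to 10.31, and all 16 pan-macrophage markers were kept. Several defining genes of the other cell types that carry these families were under the minimum in every library: Cd79a and Pax5 (B cells) at or under 1.73, Fcer1a and Cpa3 (mast cells) at or under 1.29, and Cd3d and Cd3g (T cells) at or under 1.26. Flt3 and Clec9a, dendritic cell genes, were at or under 1.49. Other genes of these lists were kept. They were 4 of 9 in the table for B and plasma cells, among them Cd22 (6.06 to 7.11) and Ighm (4.64 to 6.15), and 5 of 10 for mast cells, among them Hdc (8.23 to 10.01) and Kit (4.22 to 5.82). For T and related lymphocytes 2 of 10 were kept, among them Cd3e (4.34 to 5.20), and for dendritic cells 8 of 12, among them Batf3 (7.69 to 10.07) and Clec10a (9.85 to 11.71). Markers of the tumour epithelium were present, with 10 of 13 in the table kept. The summed unlogged value of all 13 ran from 2346 to 2992 in the DMSO day 8 libraries and 1821 to 3930 in GSK day 8. At day 14 it was 1330 to 2083 with DMSO and 1230 to 1708 with GSK. Summed values here and below take every gene of a list in the table, so the highest genes weigh most. The highest medians were those of Cdh1 (9.90 to 10.66) here, Hdc in the mast cell list and Fn1 (12.98 to 13.70) in the monocyte list. The libraries also split by where ribosomal RNA signal was recorded, on the transcript AY036118 in 9 and on Gm42418 in 5, and all 4 GSK day 14 libraries were of the first kind. Correlations between libraries were 0.967 to 0.993 within groups and 0.933 to 0.990 between them.

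Tmem176b was the only member with an adjusted p under 0.05 between days in both arms. It was at 8.02, 8.25 and 7.95 in the DMSO day 8 libraries and at 9.65, 8.75, 9.16 and 8.99 in the DMSO day 14 libraries. The GSK day 8 libraries gave 8.51, 8.34 and 8.76 and the GSK day 14 libraries 9.56, 9.37, 9.33 and 9.74. In each arm every day 14 library lay above every day 8 library.
Tmem176b rose by 1.06 (SE 0.19, adjusted p = 0.0175) from day 8 to day 14 in the DMSO arm, a 2.09-fold change. In the GSK arm it rose by 0.96 (SE 0.19, adjusted p = 0.0107), or 1.95-fold. The change differed between arms by -0.10 (SE 0.27, adjusted p = 0.934, 95% interval -0.66 to 0.47). The DMSO call was lost without DMSO day 8 replicate 1 (adjusted p = 0.0587) or replicate 3 (0.0688), and the GSK call without GSK day 8 replicate 1 (0.0504) or replicate 2 (0.0523).

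Tmem176a rose with time in the DMSO arm. Its values were 8.15, 8.62 and 8.95 at day 8 and 9.87, 9.93, 9.54 and 9.01 at day 14, so the groups did not overlap but the lowest day 14 library lay just above the highest day 8 one. Such groups, wholly higher at day 14, were seen for 4.1% of kept genes in the DMSO arm. The rise was 1.01 (SE 0.21, adjusted p = 0.0372), or 2.02-fold. In the GSK arm the values were 8.97, 8.77 and 8.82 at day 8 and 9.22, 9.26, 9.11 and 9.01 at day 14. These groups did not overlap either, with a difference of 0.30 (SE 0.21, adjusted p = 0.404) that did not pass. The DMSO call was lost without any of 9 libraries: DMSO day 8 replicate 1 (a change of 0.80, adjusted p = 0.137), GSK day 8 replicate 2, DMSO day 14 replicates 1, 2 or 3, or any of the GSK day 14 libraries, the other adjusted p-values running from 0.0509 to 0.0888.

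Those were 2 of 7 members past the threshold of 0.05 between days in the DMSO arm, where 0.824% of all kept genes passed in either direction. The other 5 gave changes from -0.37 for Ms4a6d to 0.29 for Ms4a7. In the GSK arm 1 of 7 passed, against 7.01% of kept genes. There the day 14 libraries lay wholly above the day 8 libraries for 5 members, Ms4a4c, Ms4a6c, Ms4a7, Tmem176a and Tmem176b, as they did for 15.1% of kept genes. The median change over the 7 members was 0.23 in the DMSO arm and 0.38 in the GSK arm, beside 0.0047 and 0.012 over all kept genes.

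Markers of other cell types moved between these days as well. In the DMSO arm 1 of 10 epithelial markers fell, against 0.522% of kept genes (the junction protein gene Cldn7, -1.19), and the list's median was -0.54. In the GSK arm 7 of 10 fell, against 3.95%, led by the keratin genes Krt18 (-2.95) and Krt7 (-2.28). With the epithelial mean as a covariate, no member passed in either arm, and the Tmem176b change was 0.85 (adjusted p = 0.231) in the DMSO arm and 0.50 (adjusted p = 1.00) in the GSK arm. With the pan-macrophage mean as a covariate it was 0.70 (adjusted p = 0.110) and 0.34 (adjusted p = 0.438). Few genes of any kind passed in these fits. With the epithelial covariate 0.0252% of kept genes passed in the DMSO arm and 0.00841% in the GSK arm. With the pan-macrophage covariate the shares were 0.0757% and 0.0337%, against 0.824% and 7.01% in the main fit. The epithelial mean did not overlap between days in either arm, so that covariate partly stands for day. Mast cell genes Hdc and Gata2 fell in both arms. That was 2 of 5 kept markers in each, against 0.522% of kept genes with DMSO and 3.95% with GSK. The list's summed unlogged value was 896 to 1150 in DMSO day 8 and 685 to 1062 in GSK day 8. It was 375 to 624 in DMSO day 14 and 401 to 524 in GSK day 14. In the GSK arm 4 of 8 dendritic cell genes fell, against the same 3.95%, led by the actin-bundling gene Fscn1 (-1.54), with a summed value of 3123 to 3956 at day 8 and 1435 to 1762 at day 14. Also in the GSK arm 3 of 12 monocyte genes rose, against 3.05% of kept genes, led by Chil3 (2.09), with a summed value of 11988 to 17420 at day 8 and 16335 to 17462 at day 14. Of 6 neutrophil genes, 1 fell in each arm, against 0.522% of kept genes with DMSO and 3.95% with GSK. It was the protease gene Mmp9 (-2.05 and -2.47). The change was above 0 for 4 of the 6 in each arm, with list medians of 0.25 and 0.13. The part of these cell types in the Tmem176 changes was not tested beyond those fits.

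**Figure D2:**
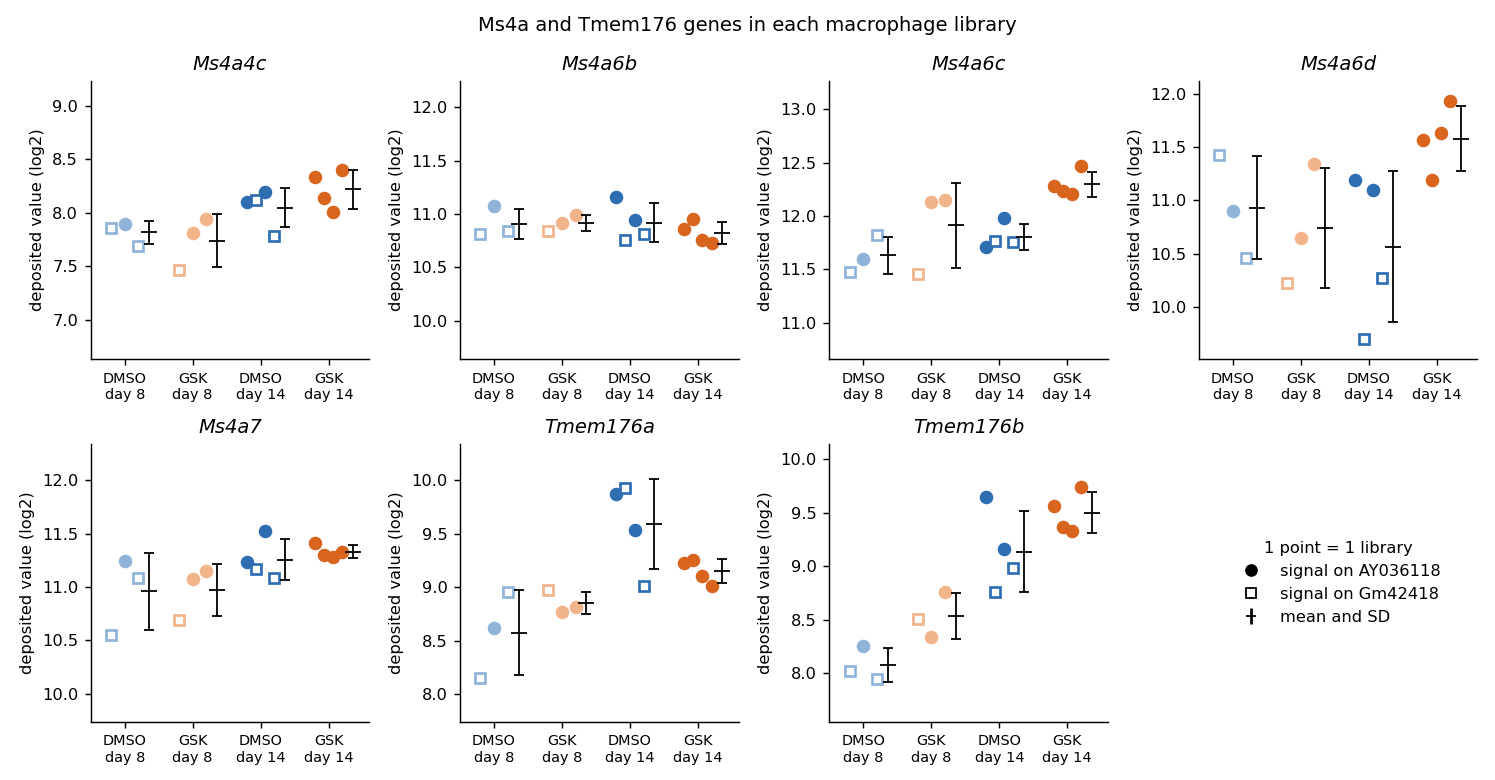
Deposited log2 value (y axis, the same span in each panel) of the 7 genes in every library, by group (x axis). Each point is 1 library, filled where ribosomal RNA signal was on AY036118 and open where it was on Gm42418, and bars give the group mean and SD. Tmem176b steps up between days in both arms, Ms4a6d is widely spread outside GSK day 14, and Ms4a6b stays within 0.44 over all 14 libraries.

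Against pre-treatment, the comparison at day 14 turned on Ms4a6d and Ms4a6c. Ms4a6d, the VSIG4 partner, was at 11.19, 9.71, 11.09 and 10.27 in the DMSO day 14 libraries and at 11.57, 11.19, 11.63 and 11.93 in the GSK day 14 libraries. The GSK libraries were the higher, but the lowest of them overlapped the top DMSO library, and the DMSO group was spread over more than 1 log2 unit. Ms4a6d rose by 1.01 with pre-treatment (SE 0.31, adjusted p = 0.0481), or 2.02-fold.
The low DMSO day 14 values, 9.71 and 10.27, came from the libraries with ribosomal signal on Gm42418, and those on AY036118 were at 11.09 and 11.19, a mean difference of 1.15. The corresponding differences in the other groups that hold both kinds were 0.77 at GSK day 8 and -0.04 at DMSO day 8. Among AY036118 libraries alone, pre-treatment gave 0.43 (adjusted p = 0.213), and with the split as a term 0.66 (adjusted p = 0.185). The GSK day 14 group has no Gm42418 library, so the split and pre-treatment cannot be told apart within it. With the split as a term 3.05% of kept genes passed at day 14, against 10.8% in the main fit. Leaving out DMSO day 14 replicate 2 gave 0.72 (adjusted p = 0.156). The call was also lost without DMSO day 8 replicate 2, GSK day 8 replicate 2, DMSO day 14 replicate 4 or any of the 4 GSK day 14 libraries, with adjusted p-values from 0.0546 to 0.163.

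Ms4a6c was the more even of the pair. It was at 11.71, 11.77, 11.98 and 11.76 in the DMSO day 14 libraries and 12.28, 12.23, 12.20 and 12.47 in the GSK day 14 libraries, and every GSK library lay above every DMSO library, as for 11.2% of kept genes. The difference of 0.49 (SE 0.15, adjusted p = 0.0515) fell just short of the threshold. It passed without DMSO day 8 replicate 1 (adjusted p = 0.0460), GSK day 8 replicate 1 (0.0147) or DMSO day 14 replicate 3 (0.0407). Among AY036118 libraries alone it was 0.45 (adjusted p = 0.0621), and with the split as a term 0.38 (adjusted p = 0.171).
At day 8 the Ms4a6c values were 11.48, 11.60 and 11.82 with DMSO and 11.46, 12.13 and 12.15 with GSK. The GSK libraries of that day were split, with replicate 1, its Gm42418 library, at the bottom and the other libraries above all DMSO ones.

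Tmem176a and Tmem176b pointed in opposite directions at day 14. Tmem176a was lower with pre-treatment by 0.44 (SE 0.19, adjusted p = 0.153), with DMSO replicate 4 (9.01) level with the lowest GSK library. Without that library the difference was -0.63 (adjusted p = 0.0472), and among AY036118 libraries alone it was -0.56 (adjusted p = 0.0379). Tmem176b was higher by 0.37 (SE 0.17, adjusted p = 0.187), and without DMSO day 14 replicate 1, its highest DMSO library, by 0.54 (adjusted p = 0.0473). Among AY036118 libraries alone the Tmem176b difference was 0.10 (adjusted p = 0.754), and with the pan-macrophage mean as a covariate 0.027 (adjusted p = 0.938).
Ms4a4c, Ms4a7 and Ms4a6b gave 0.17, 0.08 and -0.10, each with a 95% interval that included 0. At day 14, then, 1 of 7 members passed (Ms4a6d), against 10.8% of kept genes in either direction, and the median member change was 0.17 beside 0.02 over all kept genes.

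At day 8, 0 of 7 members passed, where 0.194% of kept genes did in limma. At an unadjusted p under 0.05 there was 1 member, Tmem176b, and 1939 kept genes. Tmem176b was higher in all 3 GSK libraries than in any DMSO library, by 0.46 (SE 0.20, adjusted p = 0.267). Groups wholly higher with GSK were seen for 8.01% of kept genes. Ms4a6c gave 0.28 (adjusted p = 0.454) and Tmem176a 0.28 (adjusted p = 0.568). Ms4a6d was at 11.43, 10.90 and 10.47 with DMSO and 10.23, 10.65 and 11.34 with GSK, groups that overlapped almost fully.

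Over both days together, Ms4a6c and Tmem176b rose with pre-treatment. The mean of the differences at the 2 days was 0.39 for Ms4a6c (SE 0.12, adjusted p = 0.0392), or 1.31-fold, and 0.41 for Tmem176b (SE 0.13, adjusted p = 0.0479), or 1.33-fold. That was 2 of 7 members past the threshold against 14.5% of kept genes, and the median member change was 0.05 beside 0.03. Ms4a6d gave 0.41 (SE 0.24, adjusted p = 0.262).
The Ms4a6c call held without DMSO day 8 replicate 3, GSK day 8 replicate 1 or DMSO day 14 replicate 3 and was lost without each of the other 11 libraries (adjusted p from 0.0552 to 0.120). The Tmem176b call held without DMSO day 8 replicate 2 or DMSO day 14 replicate 1 and was lost without each of the other 12 (adjusted p from 0.0525 to 0.136). Among AY036118 libraries alone the values were 0.50 for Ms4a6c (adjusted p = 0.0218) and 0.20 for Tmem176b (adjusted p = 0.420). With the split as a term both calls were lost, at 0.30 for Ms4a6c (adjusted p = 0.163) and 0.28 for Tmem176b (adjusted p = 0.221). With the pan-macrophage covariate both were lost too, at 0.35 (adjusted p = 0.120) and 0.21 (adjusted p = 0.229). Of all kept genes 5.29% passed with the split as a term and 6.1% with that covariate, against 14.5% in the main fit.

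The change in the pre-treatment difference between the 2 days was tested directly, and 0 of 7 members passed, against 0.00841% of kept genes in limma. At an unadjusted p under 0.05 there were 2 members and 987 kept genes. Those members were Ms4a6d, with a day 14 minus day 8 difference of 1.20 (SE 0.48, adjusted p = 0.548), and Tmem176a, with -0.72 (SE 0.30, adjusted p = 0.548).

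**Figure D3:**
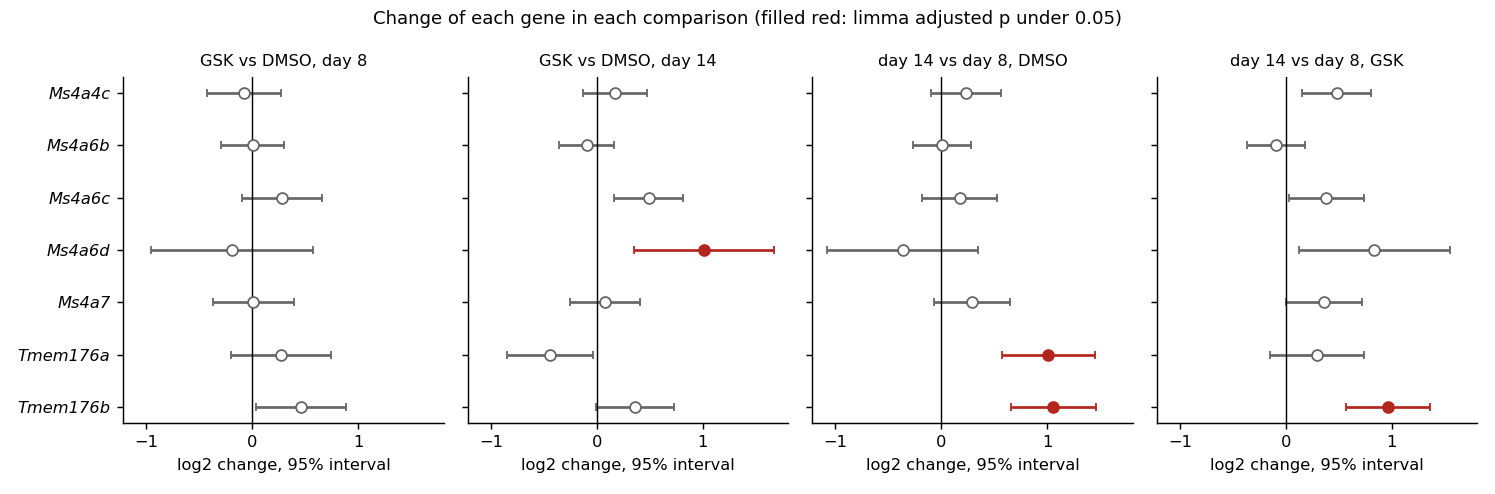
Log2 change with its 95% interval (x axis) for each of the 7 genes (y axis) in 4 comparisons, filled red where the limma adjusted p was under 0.05. Tmem176b is red in both day comparisons, Tmem176a in the DMSO one and Ms4a6d in the day 14 treatment comparison. The 4 panels share libraries and are not independent of each other.

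Ms4a4c, Ms4a6b and Ms4a7 passed in none of the 6 comparisons. Ms4a4c, expressed in mouse myeloid cells, was at 7.86, 7.90 and 7.69 in DMSO day 8, 7.46, 7.81 and 7.95 in GSK day 8, 8.10, 8.12, 8.19 and 7.78 in DMSO day 14, and 8.34, 8.14, 8.01 and 8.40 in GSK day 14. Its difference nearest to the threshold was that between days in the GSK arm, 0.48 (SE 0.16, adjusted p = 0.0692), where the groups did not overlap, and it passed without GSK day 8 replicate 3 (adjusted p = 0.0469).
Ms4a7 had group means from 10.96 ± 0.36 (SD, n = 3) in DMSO day 8 to 11.33 ± 0.06 (SD, n = 4) in GSK day 14. The 4 GSK day 14 values, 11.41, 11.30, 11.28 and 11.33, lay within the range of the DMSO day 14 values, 11.23, 11.17, 11.53 and 11.09.
Ms4a6b, the close paralog of Ms4a6c, was the steadiest member, with group means of 10.91 ± 0.14 (SD, n = 3), 10.92 ± 0.07 (n = 3), 10.92 ± 0.18 (n = 4) and 10.82 ± 0.10 (n = 4) in DMSO day 8, GSK day 8, DMSO day 14 and GSK day 14. Its range over the 14 libraries was 0.44, larger than that of 1.33% of kept genes. The range of Ms4a6d was 2.22, larger than that of 96.9%.

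Differences between neighbouring genes were taken within each library, as a description with no test and no background share of gene pairs. Tmem176b minus Tmem176a was from -1.01 to -0.13 in the DMSO day 8 libraries, -0.46 to -0.05 in GSK day 8 and -1.18 to -0.03 in DMSO day 14. In the 4 GSK day 14 libraries it was 0.11 to 0.73, above 0 in all 4, while the other 10 libraries were all below 0.
Ms4a6c minus Ms4a6b, for the paralogs with the matched upstream runs shown above, was from 0.53 to 0.98 in DMSO day 8, 0.61 to 1.22 in GSK day 8 and 0.55 to 1.04 in DMSO day 14. The GSK day 14 libraries again lay apart, at 1.28 to 1.74. Ms4a6d minus Ms4a6c overlapped between all groups, from -2.06 to -0.52 in DMSO day 14 and -1.04 to -0.54 in GSK day 14.

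**Figure D4:**
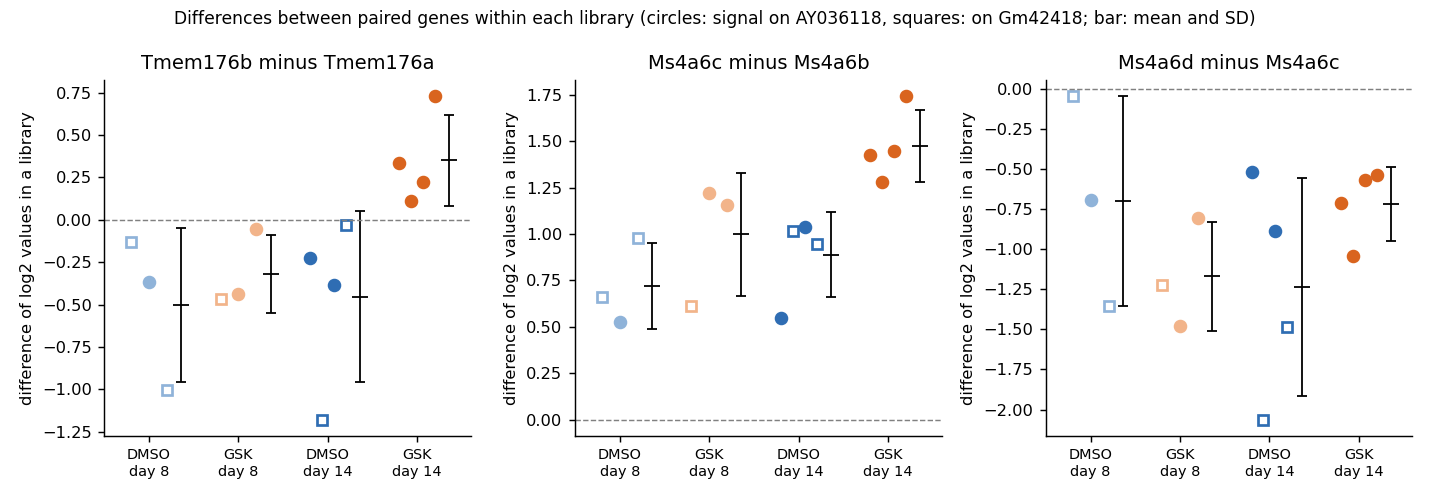
Difference of log2 values within each library (y axis) for 3 gene pairs, by group (x axis), with the group mean and SD. Circles are libraries with ribosomal RNA signal on AY036118 and squares those on Gm42418. The GSK day 14 libraries lie above 0 for Tmem176b minus Tmem176a and above 1.28 for Ms4a6c minus Ms4a6b, and all are circles.

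Reads may be shared between some of these genes. Of the 31-base words in the annotated transcripts of Ms4a6c, 64.0% also occur in another gene, most of them (56.9% of the words) in BE692007, a transcript on the opposite strand that overlaps it, and 14.7% in Ms4a6b. For Ms4a4c the share was 17.1%, mainly with Ms4a4b, for Ms4a6b 12.9%, for Ms4a6d 7.50%, for Tmem176a 1.62% and for Tmem176b 1.28%. Ms4a7 shared none. BE692007 itself had values from 6.85 to 7.64 in the 14 libraries, far below Ms4a6c, and its group means at day 14 were 7.25 with DMSO and 7.40 with GSK. Values of Ms4a6c and BE692007 are therefore uncertain if reads were counted without strand.

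For each member the 3 genes most like it over the 14 libraries were found among 7516 genes by Pearson's r, as a description in which the points share groups and library effects. Tmem176b tracked H2-Eb1, a chain of the class II antigen-presenting molecule, with r = 0.97, and r = 0.96 after the group means were removed. H2-Eb1 ran from 11.29 to 11.64 in DMSO day 8, 12.11 to 12.58 in GSK day 8, 12.06 to 13.43 in DMSO day 14 and 13.25 to 13.89 in GSK day 14. Next were the apoptotic cell receptor Axl (r = 0.95) and the proton-sensing receptor Gpr65 (r = 0.93). After the group means were removed these were lower, at 0.72 for Axl and 0.60 for Gpr65.
Tmem176a was most like the AP-1 gene Fosl2 (r = 0.88), Cd74, the class II invariant chain (r = 0.88), and Aoah, which inactivates endotoxin (r = 0.87). With group means removed, r was 0.66 for Fosl2, 0.60 for Cd74 and 0.82 for Aoah. Ms4a6d was most like Tlr4, the endotoxin receptor gene (r = 0.94), Smim4 (0.93) and B4galt5 (0.93). Tlr4 ran from 6.69 to 7.27 in DMSO day 14 and 7.26 to 7.60 in GSK day 14.
The nearest gene was U2af1 (splicing) for Ms4a6c (r = 0.97), Scamp5 for Ms4a6b (r = 0.86), Mrpl34 (mitochondrial ribosome) for Ms4a7 (r = 0.92) and the phosphatase gene Ptp4a1 for Ms4a4c (r = 0.92).
Among the members, Tmem176a and Tmem176b had r = 0.59 over libraries but 0.06 after removal of group means. Ms4a6b and Ms4a6c had r = -0.22 and 0.07, and Ms4a6d and Tmem176b 0.49 and 0.73.

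**Figure D5:**
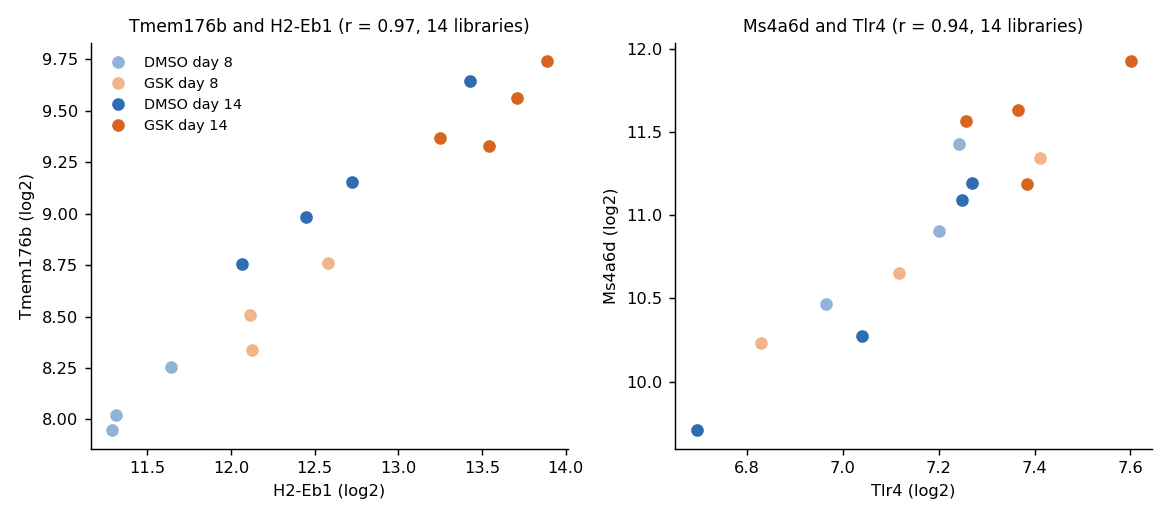
Log2 values of Tmem176b against H2-Eb1 (left) and of Ms4a6d against Tlr4 (right), 1 point per library, coloured by group. Tmem176b and H2-Eb1 climb together from the DMSO day 8 to the GSK day 14 libraries (r = 0.97), and the low DMSO day 14 libraries for Ms4a6d are also low for Tlr4 (r = 0.94).

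Genes that work with these proteins were counted from a list chosen by function, of which 11 of 13 were kept. Vsig4, the gene of the receptor that acts with Ms4a6d, was kept at 3.36 to 4.34, near the minimum of 3.32. At day 14, 2 of 11 rose with pre-treatment, against 5.1% of kept genes: Casp1, the inflammasome protease gene (1.14, adjusted p = 0.00974), and Il1b, its interleukin target (0.69, adjusted p = 0.0167). None fell, and the list's median was 0.31. Over both days 4 of 11 rose, against 6.73% of kept genes, adding Fcer1g, a signalling chain of Fc receptors (0.63), and Trem2, a lipid receptor that pairs with the adaptor Tyrobp (0.43). At day 8 none of the 11 passed. Between days, Casp1 rose in the GSK arm (0.95, adjusted p = 0.0349) and no gene of the list passed in the DMSO arm.
Genes of class II antigen presentation, 9 of 10 kept, were also followed because TMEM176 proteins are known from antigen-presenting cells. In the DMSO arm 4 of 9 rose between days, against 0.303% of kept genes: H2-Eb1 (1.25), H2-Ab1 (1.16), H2-Aa (1.14) and Cd74 (1.01). In the GSK arm 5 of 9 rose between days, against 3.05%, with H2-Eb1 at 1.32. With pre-treatment 3 of 9 rose at day 14, against 5.1% of kept genes, the thiol reductase gene Ifi30 (1.10), H2-Eb1 (0.93) and the protease gene Ctss (0.66), and 0 of 9 passed at day 8, against 0.194%, where the list's median was 0.58.
Pan-macrophage markers moved at day 14 as well. With pre-treatment 4 of 16 rose there, against 5.1% of kept genes, among them Cd68 (1.04), Tyrobp (0.96) and Lyz2 (0.81), and 3 fell, against 5.73% of kept genes, among them the complement gene C1qa (-0.85). The change was above 0 for 11 of the 16, with a list median of 0.39. The mean log2 value of the list was 11.89 in the DMSO day 14 group and 12.11 in the GSK day 14 group. The summed unlogged value, in which C1qa (15.42 to 17.28 over 14 libraries) weighs most, was 167466 to 278545 in the DMSO day 14 libraries. In the GSK day 14 libraries it was 151299 to 187233. With the pan-macrophage mean as a covariate the Ms4a6d difference was 0.33 (adjusted p = 0.424) and that of Ms4a6c 0.43 (adjusted p = 0.209). In that fit 0.74% of kept genes passed at day 14, against 10.8% in the main fit, so lost calls were not particular to these genes.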

How the data were processed

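The authors deposited 1 table of normalised values on a log2 scale for 24556 mouse Ensembl genes in 14 libraries. Bowtie2, RSEM 1.2.29 and DESeq2 1.12.4 and the builds mm10 and GRCh38 are named in the submitters' processing notes. The log transform, the strand setting and read counts are not given in the sources used here, so depth is unknown and no counting interval could be given. Symbols, coordinates and transcripts came from GENCODE M21 (GRCm38), which named 24470 of the IDs, and promoters from RefSeq (GRCm38.p6).
A gene was kept where 3 or more libraries had an unlogged value of 10 or higher, which is 3.32 in the deposited log2 units. A linear model with 4 group means was fitted in limma 3.58.1 (R 4.3.3) with an intensity trend. Its two-sided p-values were adjusted by Benjamini-Hochberg over the 11886 kept genes in each of 6 comparisons, with a threshold of 0.05. The code was tested on simulated data.
The members and lists were chosen with earlier results of these data known. The genes named were all members, other Ms4a and Tmem176 genes, up to 4 called genes of a list with the largest change, and the 3 genes most like each member, from genes with a mean unlogged value of at least 50, without numbered Gm and Rik models. BE692007 and the transcripts of the ribosomal RNA region were named after their values were seen. The 28 alternatives covered pseudocounts, filters, scalings, model settings, covariates, the ribosomal RNA split and each library left out.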

Additional observations from a re-analysis of the deposited data

How the results depend on the processing

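Depth is unknown, and groups of 3 or 4 libraries limit what could be called. No member passed at day 8, or in the difference between days, under any of the 28 alternatives. At most 2.67% of tested genes passed at day 8 and 0.101% in the difference between days. Percentages below give the share of all tested genes that passed in the same fit. Of the 7 members, 1 passed for pre-treatment at day 14, against 0 with no filter, unweighted TMM rescaling, no trend, the replicate block, the ribosomal RNA split as a term, the epithelial covariate or the pan-macrophage covariate, and 2 with a minimum of 50, quantile normalisation, library quality weights or only the groups compared; it was 0 to 2 with 1 library left out. Over both days 2 passed (14.5%). The count was 0 with no filter (3.87%), the split as a term (5.29%) or the pan-macrophage covariate (6.1%). It was 1 with TMM (14.2%), no trend (14.3%) or the replicate block (13%), and 0 to 1 with 1 library left out (6.61% to 19.3%). Between days in the DMSO arm 2 passed (0.824%). The count was 0 with no filter (0.122%), quality weights (0.16%) or only the groups compared (0.185%). It was also 0 with the epithelial covariate (0.0252%) or the pan-macrophage covariate (0.0757%), and 0 to 2 with 1 library left out (0.202% to 2.57%). Between days in the GSK arm 1 passed (7.01%), against 5 with quality weights (29.6%). The count was 0 with the epithelial (0.00841%) or pan-macrophage covariate (0.0337%), and 0 to 2 with 1 library left out (0.942% to 10.2%). The causes were not tested.

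Libraries with the same replicate number did not deviate together: over 19 pairs the correlation of deviations was -0.34 to 0.52, and 5 were over 0.1. The replicate block, which left 0 members at day 14 and 1 over both days, therefore rests on a shared number only.

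Directions that reversed belonged to changes that did not pass. For pre-treatment at day 8, Ms4a6b was -0.0094 with TMM, -0.067 with the split term, -0.12 in AY036118 libraries and -0.024 with the pan-macrophage covariate. Ms4a7 was -0.0011, -0.10, -0.13 and -0.0057 in the same order. Ms4a4c was 0.027 with quality weights and 0.094 with the epithelial covariate, and Ms4a6d was 0.094 in AY036118 libraries and 0.29 with the epithelial covariate. At day 14, Ms4a6b was 0.022 with quantile normalisation, and Ms4a7 was -0.10 with the split term, -0.049 in AY036118 libraries and -0.0064 with the pan-macrophage covariate. Over both days, Ms4a6b was 0.044 with quantile normalisation, Ms4a4c was -0.051 with the split term and -0.023 with the pan-macrophage covariate, and Ms4a7 was -0.10 with the split term, -0.088 in AY036118 libraries and -0.0061 with the pan-macrophage covariate, under which Ms4a6d was -0.0020. For the difference between days, Tmem176b was 0.072 with quality weights, Ms4a6c was -0.095 in AY036118 libraries, Ms4a4c was -0.042 with the epithelial covariate, and Ms4a7 was -0.057 with that covariate and -0.00073 with the pan-macrophage one. Between days in the DMSO arm, Ms4a6b was -0.047 with quality weights, -0.029 with the split term, -0.019 in AY036118 libraries, -0.083 with the epithelial covariate and -0.13 with the pan-macrophage one, Ms4a6d was 0.24 in AY036118 libraries, and Ms4a4c was -0.0071 with the epithelial covariate. Between days in the GSK arm, Ms4a4c was -0.049 and Ms4a6d -0.66 with the epithelial covariate, and Ms4a6d was -0.40 with the pan-macrophage one.

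With 1 library left out, the day 8 changes ran from -0.18 to 0.063 for Ms4a4c, -0.043 to 0.085 for Ms4a6b, -0.49 to 0.064 for Ms4a6d and -0.19 to 0.15 for Ms4a7. Those over both days ran from -0.056 to 0.12 for Ms4a7, -0.19 to 0.013 for Tmem176a and -0.0029 to 0.12 for Ms4a4c. The differences between days ran from -0.075 to 0.27 for Ms4a7, -0.018 to 0.33 for Ms4a6c and -0.22 to 0.075 for Tmem176b, and Ms4a6b between days in the DMSO arm from -0.075 to 0.087.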

Other observations

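Other tetraspan proteins of macrophages, which share the membrane topology but not the sequence of the MS4A proteins, were followed in a list of 12 kept genes. At day 14, 5 of them rose with pre-treatment and none fell, beside 5.1% of kept genes that rose. Cd9 (1.05), which organises membrane adhesion complexes, Cd53 (0.83), a leukocyte tetraspanin, Cd63 (0.78), a late endosomal one, and Tspan13 (0.72) were the largest. The list's median was 0.35. At day 8 none of the 12 passed and the median was 0.22. Between days, 3 of 12 rose in the GSK arm, Cd9 (1.21), Cd81 (0.81) and Cd63 (0.74), beside 3.05% of kept genes, and none passed in the DMSO arm.

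Interferon response genes gave small changes. At day 14, 2 of 18 rose with pre-treatment, beside 5.1% of kept genes, the RNA sensor gene Ifih1 (0.68) and Ifi44 (0.53), and 1 fell, beside 5.73%, the antiviral gene Rsad2 (-0.59). Over both days 5 of 18 rose and none fell, beside 6.73% of kept genes that rose, with Mx2 (0.48) and Oas1a (0.38) among them.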
